A study of Homo sapiens with 7 samples.

Results

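JeKo-1 is a human B-cell line established from mantle cell lymphoma, and its response to inhibition of Bruton's tyrosine kinase (BTK) was read from RNA sequencing of 3 libraries out of the 7 in the series. The treated group was JeKo-1 cells given a BTK inhibitor for 6 h (2 libraries), and it was set against JeKo-1 cells given no agent (1 library, headed as a 6 h control). The series title names the drug as ibrutinib, and neither its dose nor a vehicle is given in the labels. The other 4 libraries come from a second line labelled as mantle cell lymphoma, RL, with 2 libraries given the same inhibitor for 6 h and 2 given none, and they enter only where the effects in the lines are compared. Both lines grew in RPMI medium with serum, and each is a single established line, so that nothing here measures variation between patients. The libraries were chosen by their labels and column headings, and each gene is given by the transcript with the most reads over the 3 JeKo-1 libraries. Of 22257 genes in the table, 14051 had enough reads to be tested.

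BTK sits in the middle of B-cell receptor (BCR) signalling. Antigen, or in many lymphomas a tonic or self-driven signal, leads the kinases LYN and SYK to phosphorylate the receptor chains CD79A and CD79B and the adaptor BLNK, and BTK then activates phospholipase C gamma 2. The calcium and lipid messengers released feed the ERK pathway, NFAT and, through a complex with BCL10 and MALT1, NF-kB, while phosphatases such as SHP-1 (gene PTPN6) and coreceptors such as CD22 and CD72 damp the signal. Ibrutinib binds BTK covalently and is used to treat mantle cell lymphoma.

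The 3 libraries were of like depth and the treated pair lay close together. Summed over 1 transcript per gene they held 23274933 and 24017725 reads in treated cells and 24434168 reads in the control. Levels are given in CPM, reads scaled to the size of the library, and changes as log2 fold changes of treated over control with a standard error after ±. In the fit of the JeKo-1 libraries these errors rest on spread shared across transcripts and hold none of a gene's own. In a model of all 7 libraries some are larger (HK2, 0.067 and 0.150) and others smaller (MPEG1, 0.099 and 0.078). Among genes averaging at least 5 CPM, the treated libraries differed from each other by a median of 0.0676 on the log2 scale, and from the control by 0.161 and 0.143. No gene at that level differed 2-fold between the treated libraries, whereas 151 differed 2-fold between both treated libraries and the control. The labels do not say that the libraries came from separate cultures, so p-values reflect no more than how far these libraries vary, and that variation may be technical. With 1 control the fit assumes that a control would vary as the treated pair does, and whatever else set that library apart cannot be told apart from the inhibitor. Transcripts of other lineages were near the floor. The 16 myeloid markers summed to 3.70 and 4.18 CPM in treated cells and 5.26 CPM in the control, with 7 of them at 0 in every library, and the 16 T and NK cell markers to 14.8, 17.5 and 14.3 CPM, most of it ZAP70. Of the markers of mantle cell lymphoma, CCND1, the cyclin D1 gene activated in this disease, stood at 355 and 395 CPM in treated cells and 350.2 CPM in the control, and the transcription factor SOX11 at 36.4 and 34.8 CPM against 31.6 CPM. CD5, a surface marker of most such lymphomas, stood under 1 CPM in all 3 libraries.

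Treated cells had far more transcript of the antigen receptor recombinase and the surrogate light chain, and far less of SHP-1, CD20 and several B-cell surface receptors. RAG1, which with RAG2 cuts antigen receptor genes in developing lymphocytes, stood at 469 and 456 CPM in treated cells against 21.4 CPM in the control, a log2 fold change of 4.43 ± 0.09. PTPN6, which encodes SHP-1, stood at 2.35 and 2.98 CPM against 112 CPM (-5.39 ± 0.09). Of the 14051 genes tested, 1877 rose and 2094 fell, or 13.4% and 14.9% (edgeR's quasi-likelihood test, Benjamini-Hochberg adjusted p under 0.05), and these shares are the background for every count below. Fewer genes passed without treated replicate 1 (1198 higher and 1199 lower) and in DESeq2's Wald test (894 higher and 687 lower). Changes of 2-fold or more were seen in 201 genes that rose and 391 that fell, and of 4-fold or more in 53 and 94. In the text, rose and fell are used only of genes that passed this test, and other values are given as values. In bulk RNA, less transcript per cell and fewer cells carrying it cannot be told apart.

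The direction of change varied with level. Among the 1318 genes averaging at least 100 CPM, 36.1% rose and 11.0% fell, with a median log2 fold change of 0.09. Among the 2162 tested genes under 1 CPM, 43 rose and 179 fell, with a median of -0.13. The filter asked for enough reads in any 1 library, so a gene could be tested on the reads of the lone control. Such a gene can only come out lower. A gene could also be tested on treated reads alone, as RAG2 was, and such a gene tends to come out higher. List medians below include genes of both kinds. How far the filter sets the excess of falls at low level was not tested. The median over all tested genes was -0.01, and over the 9308 genes of at least 5 CPM it was 0.01. Large changes were thus mostly in genes of low level, and 94 rises and 100 falls of 2-fold or more were left among genes of at least 5 CPM.

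**Figure D1:**
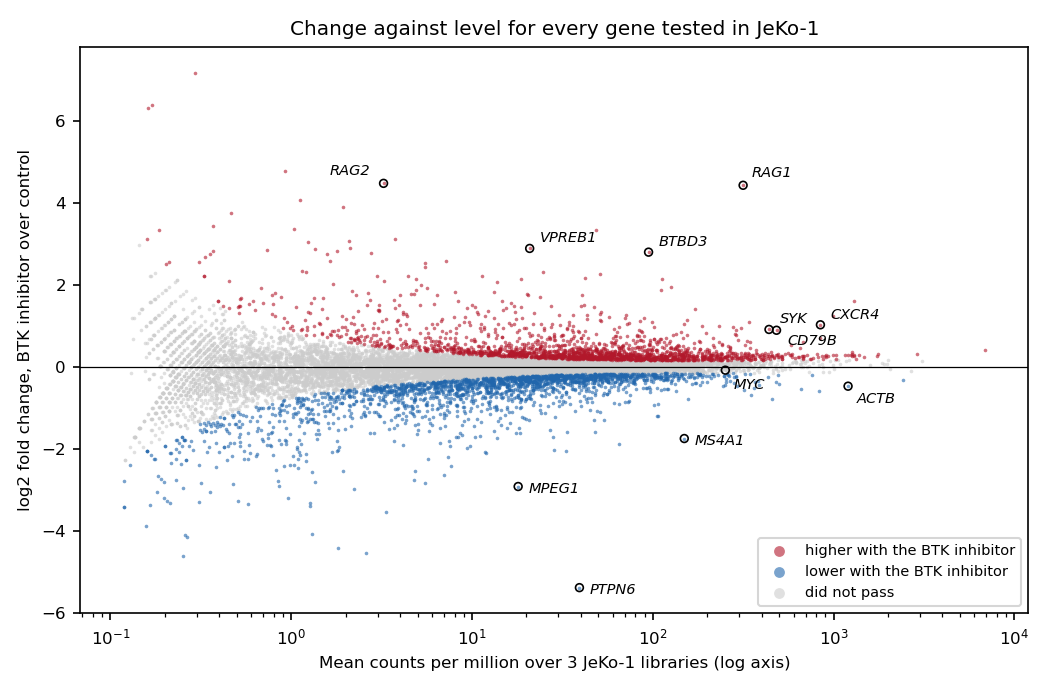
Mean CPM over the 3 JeKo-1 libraries (log axis) against the log2 fold change of BTK inhibitor over control for the 14051 genes tested; red points are genes that rose, blue points genes that fell, grey points genes that did not pass, and 12 genes are circled and named. RAG1 at a log2 fold change of 4.43 and PTPN6 at -5.39 lie outside the cloud at well measured levels, and MYC at -0.08 lies on the zero line.

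The 12 largest rises at that level, RAG1 among them, were in genes of mixed function. C10orf10, also known as DEPP and described as a FOXO-induced gene, stood at 66.5 and 71.6 CPM in treated cells against 6.85 CPM in the control (3.33 ± 0.10). BTBD3, a BTB-domain protein studied in neurons, stood at 135 and 130.4 CPM against 19.0 CPM (2.80 ± 0.08). The receptor tyrosine phosphatase PTPRE stood at 32.7 and 34.2 CPM against 6.78 CPM (2.30 ± 0.11). In each of these the treated libraries lay close together and well above the control. C18orf1, also called LDLRAD4, a membrane protein that restrains TGF-beta signalling, reached 58.0 and 56.3 CPM against 12.7 CPM (2.17 ± 0.09). Log2 fold changes were 2.59 ± 0.18 for the bestrophin channel gene BEST3, 2.52 ± 0.20 for the thyrotropin receptor TSHR, 2.44 ± 0.20 for the lectin-like receptor KLRC4 and 2.22 ± 0.14 for TMCC2. VPREB1 and MME, also among the 12, are described with the early B-cell genes. KLRC4 overlaps a read-through transcript with KLRK1, and C10orf10 lies inside RASSF4 on the opposite strand. The kit does not mark strand, so reads of such overlapping genes cannot be told apart.

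The 12 largest falls, PTPN6 among them, were likewise in genes of mixed function. MPEG1, which encodes the pore-forming perforin-2, stood at 5.58 and 5.67 CPM in treated cells against 42.7 CPM in the control (-2.92 ± 0.10). SLA, a SRC-like adaptor that lowers antigen receptor levels, stood at 1.89 and 1.72 CPM against 13.0 CPM (-2.85 ± 0.16). SRGN, the proteoglycan of secretory granules, stood at 2.89 and 2.21 CPM against 16.0 CPM (-2.65 ± 0.14). CD180, a Toll-like receptor relative on B cells, stood at 14.5 and 13.4 CPM against 57.6 CPM (-2.04 ± 0.08), and NAB2, the corepressor of EGR factors, at 15.2 and 17.2 CPM against 67.3 CPM (-2.05 ± 0.08). All of these had a control more than 3 times the higher treated library. The remaining members were the costimulatory ligand CD86 (-2.43 ± 0.14), the membrane-bound BASP1 (-2.25 ± 0.15), ENPP2, which encodes the lysophospholipase autotaxin (-2.20 ± 0.14), the Fc receptor-like FCRL5 (-2.11 ± 0.11), the lectin CLEC17A (-2.07 ± 0.11) and the chloride channel gene TTYH3 (-1.97 ± 0.12).

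**Figure D2:**
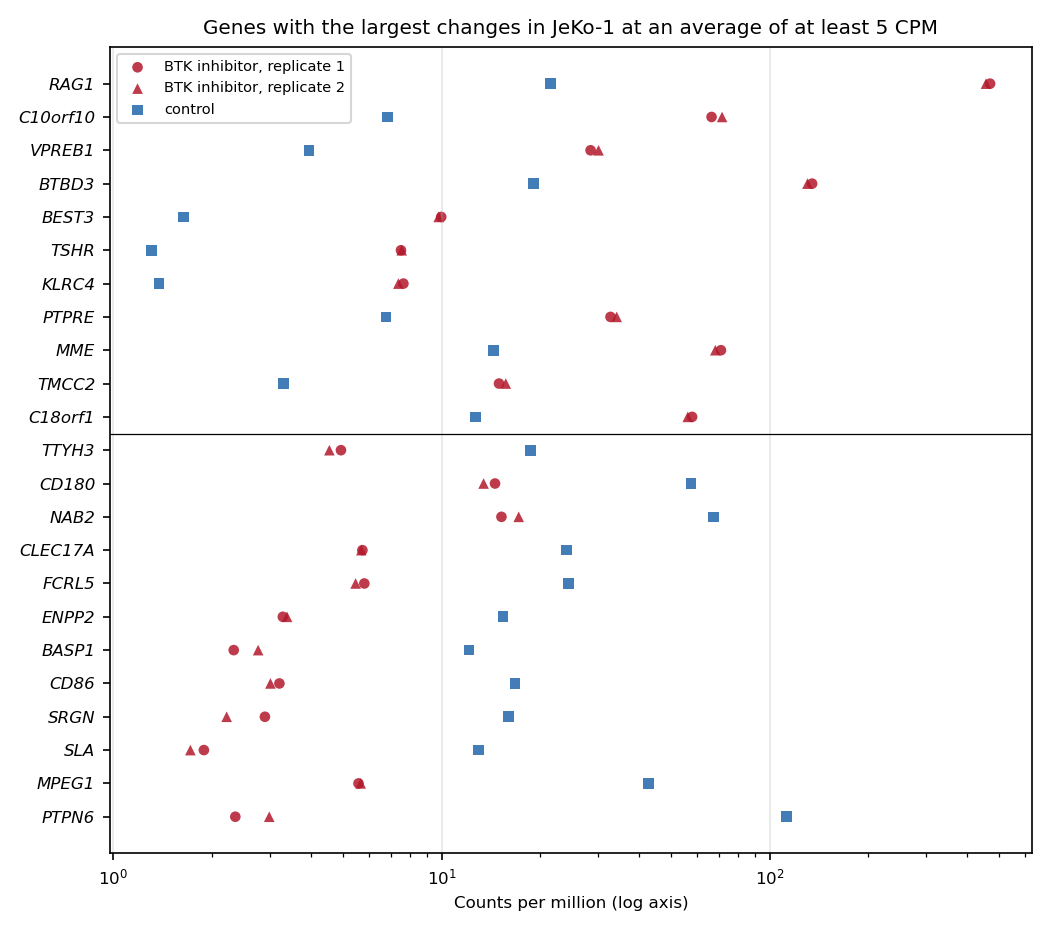
CPM (log axis) in each JeKo-1 library for 11 of the 12 genes with the largest rises (above the line) and the 12 with the largest falls (below it) among genes averaging at least 5 CPM; red symbols are the 2 libraries given the BTK inhibitor and blue squares the control. The red symbols of a gene lie together and apart from the blue square, as for RAG1 (469 and 456 CPM against 21.4 CPM). That both lie on one side of the square was required by the rule that chose the genes.

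By the cutoffs used, a single gene went between near absence and at least 1 CPM, which is still a low level. TMPRSS2, a membrane serine protease, had 46 and 61 reads in the treated libraries and 2 in the control, or 1.19 and 1.52 CPM against 0.0467 CPM. It was the only gene with at most 3 reads in the control and at least 1 CPM on average in treated cells, and no gene had at most 3 reads in each treated library and at least 1 CPM in the control.

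Of the receptor itself, the signalling chain CD79B rose while CD79A and most coreceptors fell. CD79B stood at 563 and 578 CPM in treated cells against 308 CPM in the control (0.89 ± 0.07), and CD79A at 109 and 117 CPM against 135 CPM (-0.26 ± 0.06). The coreceptor tetraspanin CD81 rose (0.70 ± 0.07). The inhibitory coreceptors fell more. CD72 stood at 33.7 and 34.6 CPM against 127 CPM (-1.90 ± 0.07), the Fc receptor FCGR2B at 13.1 and 13.9 CPM against 32.9 CPM (-1.28 ± 0.09) and CD22 at 10.4 and 11.0 CPM against 24.3 CPM (-1.19 ± 0.10). The phosphatase CD45, encoded by PTPRC, fell by less (-0.50 ± 0.07). In all, 2 of the 9 tested of 10 chains and coreceptors rose and 6 fell, with a list median of -0.42. Without treated replicate 1, CD79A was not called (adjusted p = 0.0571).

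Among kinases and adaptors, SYK rose, BTK did not pass, and the VAV genes fell. SYK, the kinase just above BTK, stood at 515 and 526 CPM in treated cells against 277 CPM in the control (0.91 ± 0.07). BTK stood at 114 and 115 CPM against 114 CPM and did not pass (0.01 ± 0.07, adjusted p = 0.932). VAV1, an exchange factor that links the receptor to Rac and calcium, stood at 19.95 and 19.9 CPM against 60.2 CPM (-1.60 ± 0.08). MALT1, which passes the signal to NF-kB, fell by less (-0.51 ± 0.08), and its partner BCL10 stood at 0.28 ± 0.13 and did not pass (adjusted p = 0.0791). Falls were also seen for VAV2 (-0.97), VAV3 (-1.11), the Ras activator RASGRP1 (-1.05), the SRC-inhibiting kinase CSK (-0.87), LYN (-0.57), PIK3AP1, an adaptor for PI3 kinase (-0.57), and PLCG2, the direct target of BTK (-0.24). The kinase genes BLK (0.18), PRKCB (0.24) and PIK3CD (0.34) rose as well. Of 26 genes, all tested, 5 rose and 14 fell, with a median of -0.32. The calls of PLCG2 without treated replicate 1 (adjusted p = 0.0719) and PIK3CD without replicate 2 (0.0657) were lost, and that of BLK was lost in 7 of 11 alternatives, among them the one without replicate 2 (0.216), the Wald test of DESeq2 (0.307) and the model of all 7 libraries (0.0612). Without replicate 2 the number that rose was 3.

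Most negative regulators of the receptor fell. Of 15 listed, 14 were tested, 10 fell and 1 rose, with a median of -0.53. PTPN6 had 91 and 120 reads in the treated libraries and 4812 reads in the control, so its low level rests on enough reads to be counted in each library. Its transcripts in the table largely repeat the same reads and are not separate measurements. PAG1, which recruits CSK to the membrane, stood at 6.98 and 5.74 CPM in treated cells against 20.6 CPM in the control (-1.69 ± 0.11), and PTPN22, a phosphatase of SRC and SYK family kinases, had 403 and 404 reads against 856 reads (-0.97 ± 0.11). The ubiquitin ligases CBL (-0.73) and CBLB (-0.31), the lipid phosphatase INPPL1 (-0.55) and the adaptor DOK3 (-0.51) fell as well. SHIP1, encoded by INPP5D, did not pass (-0.09 ± 0.07, adjusted p = 0.346), nor did SHP-2, encoded by PTPN11 (-0.08 ± 0.06, adjusted p = 0.42). The single rise was that of PTPN2, a phosphatase of JAK and STAT proteins (0.30 ± 0.07). CBLB was not called by the Wald test of DESeq2 (adjusted p = 0.143) or without treated replicate 1 (0.101) or 2 (0.0717).

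**Figure D3:**
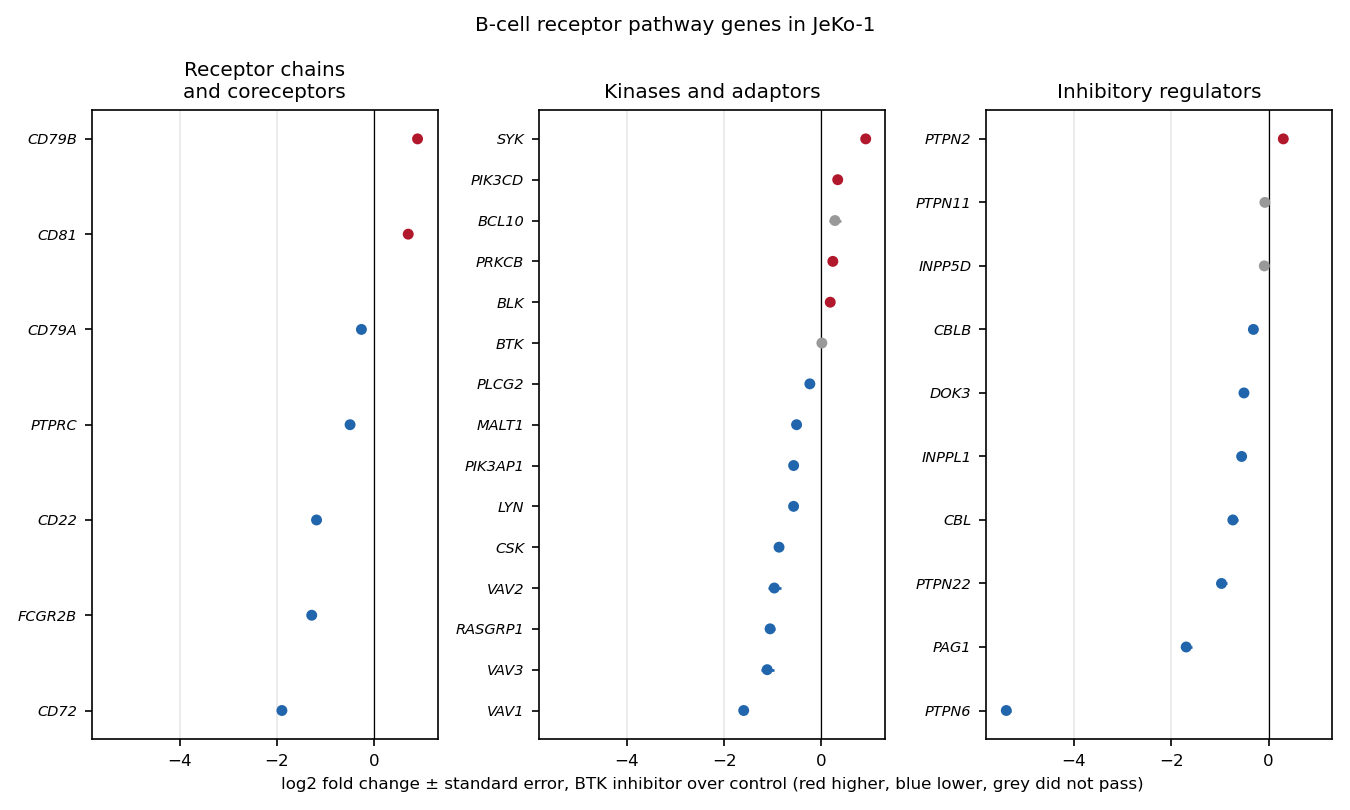
Log2 fold change of BTK inhibitor over control in JeKo-1 with its standard error for those receptor chains and coreceptors (left), kinases and adaptors (middle) and inhibitory regulators (right) that the text describes; red points rose, blue points fell and grey points did not pass. SYK at 0.91 and CD79B at 0.89 lie on the right, BTK at 0.01 on zero, and PTPN6 at -5.39 on the far left.

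Immediate early genes, transcribed within minutes of receptor signalling, and the feedback inhibitors that ERK induces were lower as a group. Of 37 listed, 33 were tested, 17 fell and 0 rose, with a median of -0.80. Most had few reads in this line, and the number that fell was 6 when genes under 5 CPM were left out and 11 in DESeq2's Wald test. Members with enough reads only in the control, such as ETV5, can only lower the median. EGR2, a zinc-finger factor induced by receptor signals, had 7 and 14 reads in treated cells and 87 reads in the control (-2.92 ± 0.36). EGR1 had 15 and 24 reads against 37 reads and did not pass (-0.80 ± 0.40, adjusted p = 0.125). NAB2, described above, had the highest CPM of those that fell. The ERK phosphatase DUSP5 stood at 0.956 and 0.821 CPM in treated cells against 3.67 CPM in the control (-2.04 ± 0.24), and DUSP2 at 6.56 and 6.51 CPM against 17.7 CPM (-1.44 ± 0.12). The ERK feedback inhibitors SPRY1 (-1.27), SPRY2 (-1.87), SPRED1 (-1.38) and SPRED2 (-2.47) fell, and the ERK-dependent factor ETV5 had 1 and 1 reads against 18 reads. The AP-1 members did not move together. JUNB fell (-0.44 ± 0.15), while FOS (0.08 ± 0.47, adjusted p = 0.922), JUN (-0.83 ± 0.48, adjusted p = 0.193) and JUND (-0.02 ± 0.23, adjusted p = 0.971) did not pass. In DESeq2's Wald test JUNB, SPRY1 and SPRY2 were not called (adjusted p = 0.442, 0.143 and 0.24), and JUNB was not called without treated replicate 1 (0.288).

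Of 30 NF-kB targets, 26 were tested, 18 fell and 2 rose, with a median of -0.58. The subunit genes NFKB1 (-0.56), NFKB2 (-0.75), RELB (-0.73) and REL (-0.45) all fell. CD83, a surface marker of activated B cells, stood at 10.9 and 10.5 CPM in treated cells against 27.5 CPM in the control (-1.36 ± 0.10), the apoptosis regulator TNFAIP8 at 9.92 and 9.50 CPM against 23.2 CPM (-1.25 ± 0.10), and the IkB-like NFKBID at 2.22 and 2.06 CPM against 6.19 CPM (-1.53 ± 0.18). NFKBIA, which encodes the inhibitor IkB-alpha, fell by only 0.23 ± 0.09. Against this direction the ubiquitin ligase gene BIRC3 stood at 38.3 and 36.6 CPM against 15.7 CPM (1.26 ± 0.09), and BCL2L1, which encodes the survival protein BCL-xL, also rose (0.43 ± 0.09). The number that fell was 8 in DESeq2's Wald test. There REL and NFKBIA were not called (adjusted p = 0.127 and 0.444), and NFKBIA also lost its call without treated replicate 1 (0.1) or 2 (0.0952) and with RLE scaling (0.0561).

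Chemokine and cytokine genes were scarce in JeKo-1. Of 19 listed, 11 were tested, 7 fell and 1 rose. CCL3, a chemokine secreted on receptor signalling, had 11 and 23 reads in treated cells and 97 reads in the control (-2.39 ± 0.32), and CCL4 had 78 and 99 reads and 157 reads (-0.71 ± 0.20). Both have near-identical copies, and the table holds CCL4L1 and CCL4L2 with equal reads, so reads could be shared between copies. IL21R, the interleukin 21 receptor, stood at 0.491 and 0.547 CPM against 2.31 CPM (-2.15 ± 0.30), and IL2RG, the chain it shares with other interleukin receptors, at 3.85 and 3.51 CPM against 7.83 CPM (-1.09 ± 0.15). IL16, a chemoattractant, rose (0.68 ± 0.07). The number that fell was 2 among genes of at least 5 CPM, where few of the list are left. CCL4 was not called by the Wald test of DESeq2 (adjusted p = 0.311).

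Genes of early B-cell development had the highest median of the 32 lists that are not markers of other lineages or of B-cell identity, 0.52. Of 25 listed, 23 were tested, 14 rose and 6 fell. Among those of at least 5 CPM, 12 rose and 6 fell. RAG2, the partner of RAG1, had 187 and 188 reads in treated cells and 9 reads in the control, or 4.83 and 4.67 CPM against 0.210 CPM (4.48 ± 0.32). RAG2 was tested on its treated reads alone, and such members tend to raise the median. RAG2 faces RAG1 on the opposite strand of chromosome 11, and the genes do not overlap in RefSeq (GRCh38.p14). VPREB1, which encodes a chain of the surrogate light chain that stands in for the light chain in pre-B cells, stood at 28.5 and 30.1 CPM against 3.95 CPM (2.89 ± 0.12). IGLL1, its partner chain, stood at 12.5 and 14.05 CPM against 5.26 CPM (1.34 ± 0.13). MME, which encodes CD10, a surface enzyme of precursor and germinal center B cells, stood at 71.0 and 68.3 CPM against 14.4 CPM (2.27 ± 0.09). In these 5 genes, RAG1 included, each treated library lay above the control by more than the pair differed from each other. Both treated libraries lay above the control in all 1877 genes that rose, so this is not particular to them.

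Transcription factors of the early B lineage moved in both directions. BACH2, a repressor that holds back plasma cell fate, stood at 108 and 112 CPM in treated cells against 48.1 CPM in the control (1.19 ± 0.07), and LEF1, a WNT pathway factor of pro-B cells, at 20.1 and 22.03 CPM against 7.15 CPM (1.56 ± 0.11). TCF3, the E-protein gene E2A, stood at 142 and 172 CPM against 89.5 CPM (0.81 ± 0.07), and its inhibitor ID3 at 20.9 and 22.2 CPM against 9.63 CPM (1.16 ± 0.11). SOX4 (0.76), EBF1 (0.52) and TCF4 (0.44) rose. SPI1, which encodes PU.1 (-0.92), the Ikaros family genes IKZF3 (-0.89) and IKZF1 (-0.29), ID2 (-0.46) and FOXO1 (-0.28) fell. PAX5, which maintains B-cell identity, did not pass (0.06 ± 0.07, adjusted p = 0.601). VPREB3, despite its name, went against VPREB1 and fell (-0.44 ± 0.08), at 25.6 and 27.3 CPM against 35.8 CPM. DNTT, the polymerase that adds bases at recombined joints, had 10 to 14 reads in each library and did not pass (0.49 ± 0.64, adjusted p = 0.623). FOXO1 was not called by the Wald test of DESeq2 (adjusted p = 0.118).

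The promoters of 4 of these genes are shown because they moved in opposite directions or by different amounts while carrying the same kind of motif. That all 4 hold this motif follows from the choice. Each is 300 bases from RefSeq (build GRCh38.p14), from 250 bases before to 50 bases after the gene's start, 5′ to 3′ on the gene's strand. Capitals mark matches to the E-box, CANNTG, the motif that TCF3 and TCF4 bind, which reads the same on both strands.
RAG2 at chr11:36598187-36598486, minus strand: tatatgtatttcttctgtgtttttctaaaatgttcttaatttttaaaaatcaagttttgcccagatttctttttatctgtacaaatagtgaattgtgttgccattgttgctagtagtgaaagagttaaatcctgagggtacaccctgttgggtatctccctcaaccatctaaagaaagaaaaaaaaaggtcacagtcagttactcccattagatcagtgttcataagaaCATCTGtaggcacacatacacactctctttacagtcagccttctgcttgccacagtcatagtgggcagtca
VPREB1 at chr22:22244536-22244835, plus strand: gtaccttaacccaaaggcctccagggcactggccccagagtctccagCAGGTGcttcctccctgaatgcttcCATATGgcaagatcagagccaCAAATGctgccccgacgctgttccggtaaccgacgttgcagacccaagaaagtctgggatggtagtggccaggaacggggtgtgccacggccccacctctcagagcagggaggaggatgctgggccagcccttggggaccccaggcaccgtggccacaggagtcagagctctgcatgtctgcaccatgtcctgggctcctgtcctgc
IGLL1 at chr22:23580241-23580540, minus strand: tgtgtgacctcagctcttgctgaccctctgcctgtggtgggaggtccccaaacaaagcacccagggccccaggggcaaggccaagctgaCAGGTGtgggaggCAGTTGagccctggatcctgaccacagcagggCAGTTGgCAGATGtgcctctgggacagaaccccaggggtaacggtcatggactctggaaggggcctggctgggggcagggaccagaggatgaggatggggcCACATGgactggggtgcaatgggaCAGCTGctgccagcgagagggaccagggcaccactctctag
VPREB3 at chr22:23754376-23754675, minus strand: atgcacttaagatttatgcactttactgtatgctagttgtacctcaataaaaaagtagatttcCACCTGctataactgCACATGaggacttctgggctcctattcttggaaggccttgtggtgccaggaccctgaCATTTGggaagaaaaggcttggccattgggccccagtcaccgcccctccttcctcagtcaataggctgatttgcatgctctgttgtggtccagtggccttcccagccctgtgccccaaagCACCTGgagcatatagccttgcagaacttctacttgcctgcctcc
The E-box was matched 1 time in RAG2, 3 times in VPREB1, 6 times in IGLL1 and 4 times in VPREB3, the gene that fell. It is common, with 68.9% of all 27305 promoters of the same length holding at least 1. Among promoters of tested genes of at least 5 CPM the share was 59.1%. None of the 4 windows held the FOXO motif TGTTTAC (3.41% of all promoters), the EGR core GTGGGCG (9.61%) or the AP-1 motif TGANTCA (7.76%) on either strand, and no matches overlapped. Among promoters of tested genes of at least 5 CPM these shares were 2.16%, 15.6% and 3.82%. The windows' starts lie within 111 bases of the start of the counted transcript, as placed by GENCODE 29, in these 4 genes. The windows of RAG1 and PTPN6 begin at other starts than those of the counted transcripts and are not shown. Windows of BACH2 and MME, which rose, and DNTT, which did not pass, were searched as well and are not shown. They held 0, 2 and 3 E-boxes, and that of BACH2 held 1 EGR core. A match is a string of letters and does not show binding.

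Genes of later B-cell stages changed in both directions. GCET2, a germinal center adaptor also known as GCSAM, stood at 217 and 216 CPM in treated cells against 80.8 CPM in the control (1.42 ± 0.07). BCL6, the germinal center repressor, had 47 and 53 reads against 58 reads and did not pass (-0.10 ± 0.28, adjusted p = 0.844). MEF2B (-0.75 ± 0.14) and ELL3 (-0.53 ± 0.08) fell, so that 3 of the 14 tested of 15 germinal center genes rose and 4 fell. Of 13 plasma cell genes, 12 were tested, 6 rose and 2 fell. Among them TNFRSF17, which encodes the receptor BCMA, stood at 15.4 and 15.2 CPM against 5.98 CPM (1.35 ± 0.13), CD38 at 23.6 and 22.7 CPM against 11.9 CPM (0.96 ± 0.10) and IRF4, a factor of plasma cells and of activated B cells, at 286 and 289 CPM against 202 CPM (0.51 ± 0.07). PRDM1, which encodes the plasma cell factor BLIMP-1, just missed the threshold (-0.62 ± 0.26, adjusted p = 0.050004), nor did XBP1 (0.13 ± 0.07, adjusted p = 0.13). PRDM1 was called lower by limma-voom (adjusted p = 0.0489), with upper quartile scaling (0.0428) and without treated replicate 2 (0.0243). Under DESeq2 the falls numbered 2 among germinal center genes and 0 among plasma cell genes, where none was called without treated replicate 1 either.

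Transcripts of surface proteins that therapeutic antibodies bind were mostly lower. All 17 listed were tested, 10 fell and 4 rose, with a median of -0.33. MS4A1, which encodes CD20, stood at 86.0 and 80.8 CPM in treated cells against 281 CPM in the control (-1.75 ± 0.06). The BAFF receptor gene TNFRSF13C stood at 3.05 and 3.56 CPM against 7.29 CPM (-1.14 ± 0.16), and CD47, the signal that restrains phagocytes, at 72.7 and 69.9 CPM against 89.6 CPM (-0.33 ± 0.07). Besides CD79B, CD38 and TNFRSF17, the orphan receptor kinase gene ROR1 rose, at 36.9 and 36.5 CPM against 21.5 CPM (0.77 ± 0.08). Of 15 class II antigen presentation genes, 1 rose and 5 fell, with a median of -0.07. The antigen-presenting chain genes HLA-DQB1 (-0.67 ± 0.12) and HLA-DQA1 (-0.36 ± 0.08) fell, as did HLA-DOB, with 23 and 38 reads in treated cells and 67 reads in the control (-1.02 ± 0.31). HLA-DOB was not called by DESeq2 (adjusted p = 0.409) or without treated replicate 1 (0.204), nor HLA-DQA1 without replicate 2 (0.0545). CD74, the invariant chain, fell by 0.19 ± 0.07, and HLA-DRA (0.07 ± 0.07, adjusted p = 0.5) and the master regulator CIITA (0.17 ± 0.08, adjusted p = 0.0788) did not pass. HLA genes differ between people and have close relatives, so their reads may be split unevenly. CD74 was not called by the Wald test of DESeq2 (adjusted p = 0.0505), with RLE scaling (0.0505) or without treated replicate 1 (0.186). The number of class II genes that fell was 2 without treated replicate 1 and 3 without replicate 2, and that of surface antigens 6 under DESeq2.

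Transcripts of receptors that place B cells in tissue were split. CXCR4, the receptor for the stromal chemokine CXCL12, stood at 1039.6 and 996 CPM in treated cells against 500.1 CPM in the control (1.02 ± 0.07), the oxysterol receptor GPR183 at 35.0 and 31.5 CPM against 16.1 CPM (1.04 ± 0.09), and the sphingosine phosphate receptor S1PR4 at 15.1 and 21.5 CPM against 4.39 CPM (2.06 ± 0.13). The S1PR4 values of the treated libraries differed more from each other than was usual for the pair, yet both lay over 3 times the control. ITGA4 and ITGB1, the chains of the integrin VLA-4, rose by 0.52 and 0.27. CXCR5, the follicle homing receptor, fell and stood at 0.388 and 0.646 CPM against 2.57 CPM (-2.30 ± 0.29), and ITGB2, the beta chain of LFA-1, at 0.569 and 0.398 CPM against 2.29 CPM (-2.24 ± 0.31). ICAM1, the ligand of LFA-1 (-1.03 ± 0.16), and RGS2, a brake on G protein signals (-1.43 ± 0.16), fell as well. S1PR1 (0.06 ± 0.13, adjusted p = 0.762) and CCR7 (-0.01 ± 0.11, adjusted p = 0.946) did not pass. Of 21 listed, 18 were tested, with 5 higher and 5 lower. Among those of at least 5 CPM, 5 rose and 1 fell.

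Replication, mitosis and histone genes were slightly higher, each by less than 2-fold. Of 32 genes of the G1/S transition and replication, 31 were tested, 20 rose and 2 fell, with a median of 0.23. Of 30 mitotic genes, 19 rose and 0 fell, with a median of 0.26, and of 20 replication histones, 16 rose and 0 fell, with a median of 0.27. Among all genes of at least 100 CPM, 36.1% rose. PCNA, the replication clamp, stood at 487 and 479.7 CPM in treated cells against 379 CPM in the control (0.35 ± 0.07), and E2F2, a factor of S phase entry, at 68.2 and 74.5 CPM against 49.8 CPM (0.52 ± 0.07). BUB1, a spindle checkpoint kinase, stood at 344 and 323 CPM against 193 CPM (0.79 ± 0.07), and the kinetochore protein CENPF at 349.9 and 322 CPM against 196 CPM (0.78 ± 0.07). The proliferation marker MKI67 (-0.08 ± 0.07, adjusted p = 0.413) and PLK1 (-0.10 ± 0.07, adjusted p = 0.345) did not pass. Exceptions were the cyclin genes CCND2, at 0.413 and 0.348 CPM against 1.31 CPM (-1.77 ± 0.38), and CCNE1 (-0.50 ± 0.13), which fell, and CCND1, which did not pass (0.10 ± 0.07, adjusted p = 0.277). In DESeq2's Wald test CCND2 and CCNE1 were not called (adjusted p = 0.138 and 0.228), and CCNE1 was not called without treated replicate 1 (0.119). Reads of histone genes may be shared, since the copies are near-identical, and their transcripts mostly lack the poly(A) tail.

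MYC and the machinery of ribosome production stayed near their control levels. MYC, a transcription factor that drives growth, stood at 241 and 253 CPM in treated cells against 261 CPM in the control (-0.08 ± 0.06, adjusted p = 0.369). Of its 10 partner and antagonist genes, 9 were tested, MGA rose (0.28 ± 0.07) and MXD1 fell (-0.48 ± 0.19). The MXD1 call was kept with upper quartile scaling, and the filter at a mean of 5 CPM left the gene untested. It was lost in the other 9 alternatives. Among these were the Wald test of DESeq2 (adjusted p = 0.579), the model of all 7 libraries (0.0525) and those without treated replicate 1 or 2. All 36 nucleolar genes of ribosome production were tested, and 4 rose and 4 fell, with a median of -0.01, a share under the background in each direction. Nucleolin, encoded by NCL, stood at 1983 and 1862 CPM against 1835 CPM (0.07 ± 0.08, adjusted p = 0.558), and the widest values ran between -0.37 for RRS1 and 0.27 for GNL3. RRS1 lost its call under DESeq2 (adjusted p = 0.281) and without treated replicate 1 (0.163), where 2 genes of the list were called higher and 0 lower. With upper quartile scaling 8 of the 36 were called lower.

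Protein folding and sterol genes were moderately lower. Of 21 endoplasmic reticulum stress genes, 14 fell and 2 rose, with a median of -0.26. CALR, the calcium-binding chaperone calreticulin, stood at 573 and 579 CPM in treated cells against 836 CPM in the control (-0.54 ± 0.07), and PDIA3, a disulfide isomerase, at 103 and 103 CPM against 151 CPM (-0.55 ± 0.06). HSPA5, the main chaperone of the lumen, also fell (-0.39 ± 0.06). EDEM1, which extracts misfolded glycoproteins, rose (0.62 ± 0.07), as did ATF4 (0.34 ± 0.07). Of 18 heat shock genes, 10 fell and 1 rose, with a median of -0.18. The inducible pair HSPA1A (-0.97) and HSPA1B (-0.90), which share near-identical sequence, and HSPH1 (-0.45) fell, while HSP90AA1 did not pass (0.02 ± 0.07, adjusted p = 0.875). In DESeq2's Wald test 4 heat shock genes fell. HSPA1A was not among them (adjusted p = 0.0592). The number was 4 without treated replicate 1 and 5 without replicate 2. Of 27 cholesterol synthesis genes, 25 were tested, 12 fell and 2 rose. SCD, the fatty acid desaturase, stood at 347 and 342 CPM against 466 CPM (-0.44 ± 0.06), and HMGCS1 at 156 and 157 CPM against 207 CPM (-0.40 ± 0.06). The falls numbered 7 under DESeq2.

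Interferon response genes moved in both directions, with more falls than rises over all those tested and equal numbers among genes of at least 5 CPM. Of 32 listed, 28 were tested, 13 fell and 5 rose, with a median of -0.60. MX1, an antiviral GTPase, stood at 9.95 and 8.63 CPM in treated cells against 24.9 CPM in the control (-1.42 ± 0.10), PARP9 at 9.04 and 9.50 CPM against 23.4 CPM (-1.34 ± 0.10), its partner DTX3L at 27.2 and 27.0 CPM against 50.8 CPM (-0.91 ± 0.08), and IRF9, a subunit of the interferon-activated complex, at 6.02 and 7.09 CPM against 13.9 CPM (-1.09 ± 0.12). Several of the steepest falls rest on few reads, such as OASL with 1 and 2 reads against 31 reads. Among genes of at least 5 CPM, 5 falls and 5 rises were left, and under DESeq2 6 falls and 4 rises. OASL was tested on its control reads alone, and such members can only lower the median. MX2 (0.36 ± 0.07), STAT2 (0.30 ± 0.07), IRF1 (0.33 ± 0.08), TRIM22 (0.29 ± 0.09) and ISG20 (0.71 ± 0.15) rose. TRIM22 was not called by the Wald test of DESeq2 (adjusted p = 0.213) or without treated replicate 1 (0.134) or 2 (0.0619).

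Among survival and arrest genes, members of the BCL2 family moved in both directions. Of 16 listed, 13 were tested, 3 rose and 2 fell, beside 28.3% of all tested genes called in either direction. BCL2 (-0.04 ± 0.08, adjusted p = 0.783) and MCL1 (0.04 ± 0.06, adjusted p = 0.677), the main survival genes, did not pass. The pro-apoptotic BMF rose (0.35 ± 0.11), HRK had 39 and 45 reads in treated cells and 13 reads in the control, and BIK fell (-1.80 ± 0.24). Of 24 p53 targets, 6 rose and 6 fell. GADD45A, a stress-induced arrest gene, stood at 23.4 and 24.0 CPM against 8.62 CPM (1.46 ± 0.11), TP53INP1 at 12.5 and 13.8 CPM against 4.77 CPM (1.47 ± 0.14) and MDM2 at 119 and 125 CPM against 80.4 CPM (0.60 ± 0.07), whereas CDKN1A, the p21 inhibitor, fell (-0.77 ± 0.09). The p53 targets that fell numbered 3 without treated replicate 1. Of 30 FOXO and quiescence genes, 26 were tested, 9 rose and 2 fell, with a median of 0.16. CCNG2 (0.85 ± 0.10), KLF7 (0.86 ± 0.20), YPEL3 (0.71 ± 0.16) and TXNIP (0.21 ± 0.07) rose, KLF6 fell (-0.52 ± 0.13) and TSC22D3 did not pass (0.08 ± 0.11, adjusted p = 0.643). The number of FOXO and quiescence genes that rose was 4 in DESeq2's Wald test. There KLF6, KLF7, YPEL3, TXNIP, BMF and HRK were not called (adjusted p = 0.0942 for YPEL3 and up to 0.282 for BMF), and BMF without treated replicate 2 (0.0673) and TXNIP without treated replicate 1 (0.0922) lost their calls. Without replicate 1 the FOXO and quiescence genes that rose numbered 5. A single member of the BCL2 family rose under DESeq2.

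Glycolysis, hypoxia and amino acid response genes moved in both directions. Of 34 oxidative phosphorylation genes, 11 rose and 0 fell, with a median of 0.12 and a highest value of 0.33 ± 0.08 for NDUFA2, and without treated replicate 1 the count was 2. Beside this, 36.1% of all tested genes of at least 100 CPM rose, and 18.65% of those of 20 to 100 CPM. Of 25 glycolysis genes, 4 rose and 6 fell, with the glucose transporter gene SLC2A3 at -1.31 ± 0.39 (18 and 16 reads against 46 reads), HK1 at -0.49 ± 0.09 and HK2 at -0.38 ± 0.07, and of 20 hypoxia genes, 17 were tested, 4 rose and 6 fell. HK2 was not called in the model of all 7 libraries (adjusted p = 0.0839) or without treated replicate 1 (0.313) or 2 (0.26), and SLC2A3 was not called in that model (0.108), by DESeq2 (0.373) or without replicate 1 (0.275) or 2 (0.337). Glycolysis calls without treated replicate 2 were 1 higher and 1 lower. In the model of all 7 libraries the higher and lower counts were 2 and 1 for glycolysis and 1 and 0 for hypoxia. Among amino acid response genes 5 of the 25 tested rose and 6 fell, among them WARS, a tryptophan tRNA synthetase that interferon also induces (-0.78 ± 0.06), and, in the other direction, the lipoprotein receptor gene VLDLR (1.03 ± 0.19). Of these, 3 rose without treated replicate 1. Of 25 proteasome genes 2 rose and 1 fell, and none rose without treated replicate 1. Of 8 sterol efflux genes ABCA1 rose (0.24 ± 0.07), a call lost under DESeq2 (adjusted p = 0.0953), in the model of all 7 libraries (0.0568) and without treated replicate 1 (0.167) or 2 (0.197). Of 14 genes often used as references 4 rose and 2 fell, while 2 rose without treated replicate 1. ACTB stood at 1008 and 1119 CPM in treated cells against 1477 CPM in the control (-0.47 ± 0.07), whereas GAPDH stood at 3178 and 3204 CPM against 2892 CPM and did not pass (0.14 ± 0.08, adjusted p = 0.178). GAPDH was called higher by limma-voom (adjusted p = 0.0415).

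**Figure D4:**
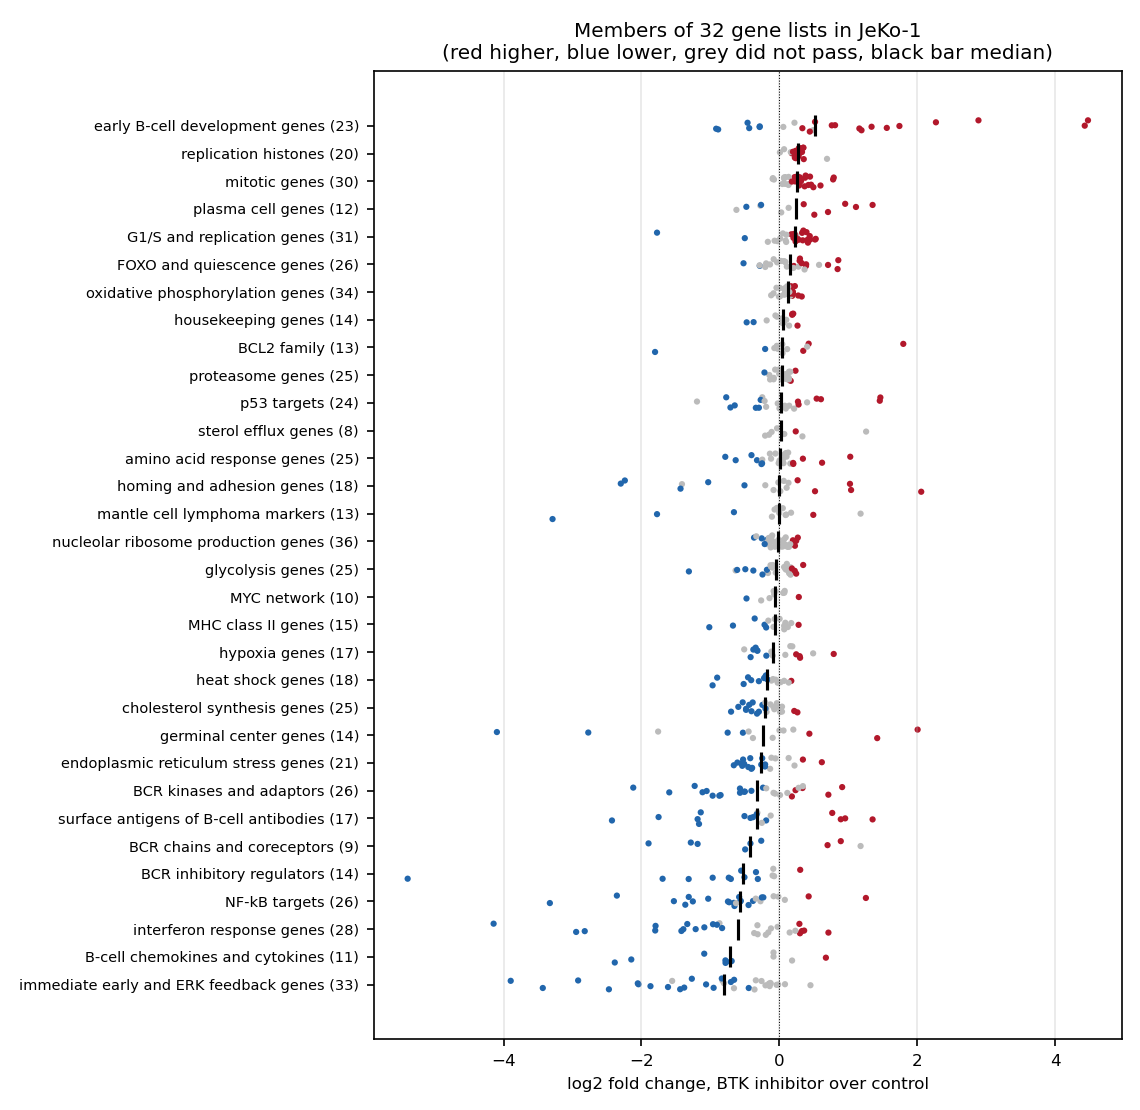
Log2 fold change of BTK inhibitor over control in JeKo-1 for the tested members of 32 gene lists, ordered by list median (black bar), with the number tested in brackets; red points rose, blue points fell and grey points did not pass. Early B-cell development genes have the highest median (0.52) and immediate early and ERK feedback genes the lowest (-0.80).

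Changes were spread over the chromosomes. Matched to RefSeq gene order (GRCh38.p14), 13981 of the 14051 tested genes could be placed, and chromosome medians ran between -0.06 and 0.05. Medians over runs of 20 neighbouring genes lay between -0.29 (1st percentile) and 0.24 (99th percentile) in 13544 overlapping runs. The lowest run, with a median of -0.55 and 19 of 20 genes lower, was the gamma protocadherin cluster on chromosome 5, PCDHGA3 to PCDHGC4. Its members share their last exons, so the same reads are counted many times, and none averaged 5 CPM. The next were a run on chromosome 19 from GLT25D1 to PGPEP1 with 10 genes lower and 1 higher (median -0.47) and a run on chromosome 11 from GLYATL2 to SLC15A3 with 12 lower and 2 higher (-0.47). The second of these holds MPEG1 and MS4A1, which lie within 20 tested genes of each other. IFI30, a lysosomal thiol reductase in the chromosome 19 run, stood at 10.3 and 11.4 CPM in treated cells against 33.4 CPM in the control (-1.62 ± 0.09). FAM111B, a protease gene in the chromosome 11 run, went the other way at 18.5 and 16.4 CPM against 4.93 CPM (1.82 ± 0.13).

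The effect in JeKo-1 was set against that in RL in a model of all 7 libraries, from which the log2 fold changes of both lines in the rest of the text are taken. Of 15837 genes tested, the effects differed for 17.8%, with 1396 (8.81%) higher and 1417 (8.95%) lower in JeKo-1 than in RL. The 8 genes of smallest p that averaged at least 5 CPM had adjusted p-values of the difference between 9.4e-14 and 1.1e-10. PTPN6 changed by -5.39 ± 0.09 in JeKo-1 and -1.68 ± 0.06 in RL, where it stood at 21.3 and 21.8 CPM in treated RL cells and 69.0 and 69.0 CPM in RL controls. MS4A1 changed by -1.74 ± 0.06 in JeKo-1 and -0.10 ± 0.05 in RL (RL adjusted p = 0.129). BTBD3 changed by 2.81 ± 0.09 in JeKo-1 and 0.04 ± 0.09 in RL (RL adjusted p = 0.808). TLR10, a Toll-like receptor of B cells, changed by -3.53 ± 0.16 and -0.20 ± 0.05, and MPEG1 by -2.92 ± 0.08 and -0.94 ± 0.05, in JeKo-1 and RL.

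The other 3 of the 8 were MYC, ADORA2A and SIT1. MYC changed by -0.08 ± 0.07 in JeKo-1 (adjusted p = 0.489) and by -2.55 ± 0.09 in RL, where it stood at 3.29 and 3.75 CPM in treated RL cells against 22.4 and 19.5 CPM in RL controls. The adenosine receptor gene ADORA2A changed by -2.75 ± 0.13 in JeKo-1 and 0.35 ± 0.06 in RL, and SIT1, a membrane adaptor that recruits SHP-2, by -1.57 ± 0.07 and 0.16 ± 0.05. Over the 11343 genes of at least 1 CPM in each line, 270 were called in both lines in opposite directions with a called difference, 129 of them higher and 141 lower in JeKo-1.

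Effects on ribosome production genes were higher in JeKo-1 than in RL, and those on early B-cell genes differed in both directions. Among the 11343 genes the background of called differences was 22.9%, with 11.8% higher and 11.1% lower in JeKo-1. All 36 ribosome production genes had a called difference, each higher in JeKo-1 than in RL, with medians of -0.01 in JeKo-1 and -0.68 in RL. Of the 17 early B-cell genes at that level, 15 had a called difference, 10 higher and 5 lower in JeKo-1. LEF1 changed by 1.57 ± 0.11 in JeKo-1 and -0.46 ± 0.09 in RL, BACH2 by 1.20 ± 0.08 and 0.15 ± 0.14, and VPREB3 by -0.43 ± 0.08 and 0.41 ± 0.07. Of 20 interferon genes, 10 differed, all lower in JeKo-1, with MX1 at -1.41 ± 0.17 in JeKo-1 and 0.64 ± 0.10 in RL. Of 24 kinases and adaptors, 16 differed, 4 higher and 12 lower. Immediate early genes had like medians, -0.70 in JeKo-1 and -0.74 in RL over 21 genes, with 4 differences higher and 8 lower in JeKo-1. RAG1 had few reads in RL, 9 and 44 reads in treated RL cells and 9 and 23 reads in RL controls, and VPREB1 had 7 and 7 reads and 0 and 0 reads, so that the RL effect on them is poorly measured.

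**Figure D5:**
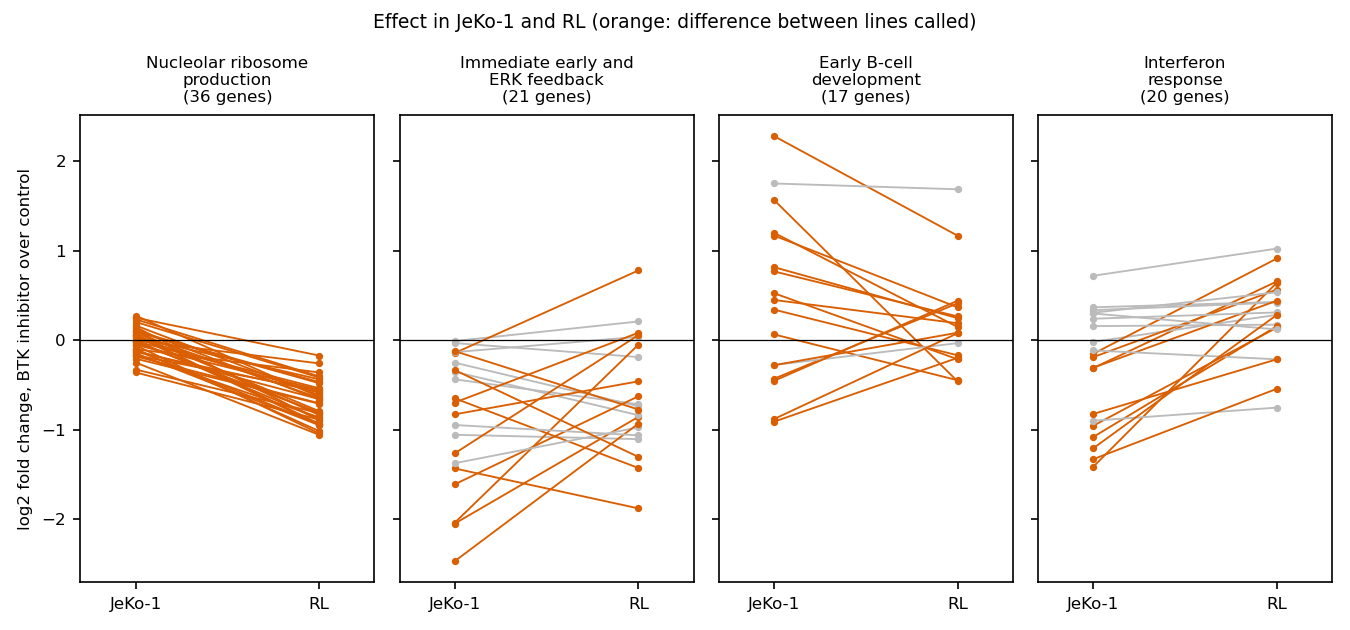
Log2 fold change of BTK inhibitor over control in JeKo-1 (left of each panel) and RL (right), from the model of all 7 libraries, for 4 gene lists with members of at least 1 CPM in each line; lines join the 2 values of a gene and are orange where the difference between the lines was called. All 36 ribosome production genes are orange and slope down to RL, where their median is -0.68.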

How the data were processed

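RNA libraries were made with a TruSeq kit that keeps no strand. Per the submitters' processing notes the tools were CASAVA 1.8, BWA and Partek 6.6 on build hg19 (GRCh37), in roles not given in the sources used here. The tables deposited by the authors hold, per the file headers, raw read counts for 34917 RefSeq transcripts beside FPKM and log2 columns. Only the counts were used. The log2 columns of the JeKo-1 table are headed ALKi against Ctl, while its read columns are headed Btki, as the labels are. In genes with several transcripts and a highest mean of at least 20 reads, 86.3% of transcripts lay within 10% of that highest mean, so transcripts were not summed.

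In JeKo-1, 23564 transcripts of 14051 genes passed edgeR's filterByExpr and were tested by quasi-likelihood (edgeR 4.0.16, R 4.3.3, TMM scaling), with Benjamini-Hochberg adjusted p-values over transcripts and a threshold of 0.05. This fit has 1 residual degree of freedom, and its p-values rest wholly on the spread shared across transcripts (common biological coefficient of variation 3.91%). A gene's own spread has no part in them, so adjusted p-values of genes called in JeKo-1 are not printed. Standard errors are log2 fold changes over the square root of F, so those of this fit hold none of a gene's own spread either. The difference between lines was tested in a 4-group model of all 7 libraries with 3 residual degrees of freedom. Over all transcripts, which repeat reads, the treated JeKo-1 libraries held 39486684 and 40693456 counts and the control 41488886 counts. The treated pair differed beyond Poisson error (chi-square per degree of freedom 3.78 over genes with at least 20 summed reads) and was kept as 2 libraries. The test was checked on simulated data.

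The genes, the 37 lists (725 distinct symbols, 724 of them in the table) and the tests were chosen with earlier results of these data known, so list counts are descriptions. The rule for named genes took the 12 steepest rises and 12 steepest falls averaging at least 5 CPM, up to 4 members of smallest p per list, a fixed set of genes of interest, the 8 genes of smallest p of the difference and members of 3 runs of neighbouring genes. The steepest rises and falls also had to have both treated libraries on one side of the control, which held for every gene called in JeKo-1. List members beyond that rule, and the genes under other observations, were named after their values were seen. Gene order came from RefSeq (GRCh38.p14), matched by accession for 13660 genes, by symbol for 217 and by synonym for 104. Alternatives were other scalings, DESeq2 1.42.0, limma-voom (limma 3.58.1), other filters, 1 transcript per gene, the model of all 7 libraries, each treated library left out and a replicate block. Some genes that enter the counts are not reported here by name.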

Additional observations from a re-analysis of the deposited data

Results flagged for a closer look

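The test of the difference between lines was called for 16 of 27 genes, those of the fixed set and the 8 of smallest p. Each is given as the effect in JeKo-1 minus that in RL, on the log2 scale, with an adjusted p from edgeR's quasi-likelihood test in the model of all 7 libraries. Differences below zero were -3.71 ± 0.12 for PTPN6, -3.33 ± 0.17 for TLR10, -3.10 ± 0.14 for ADORA2A, -1.97 ± 0.09 for MPEG1, -1.73 ± 0.09 for SIT1, -1.64 ± 0.08 for MS4A1, -0.84 ± 0.10 for VPREB3 and -0.31 ± 0.09 for ACTB (adjusted p = 0.0179). Differences above zero were 3.81 ± 0.48 for RAG1, 2.98 ± 0.21 for CCL4, 2.77 ± 0.13 for BTBD3, 2.47 ± 0.12 for MYC, 1.46 ± 0.43 for EGR1 (adjusted p = 0.0237), 1.11 ± 0.10 for MME, 0.31 ± 0.08 for BTK (adjusted p = 0.00937) and 0.25 ± 0.08 for CXCR4 (adjusted p = 0.0292).

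CCL4 changed by -0.70 ± 0.17 in JeKo-1 and by -3.69 ± 0.12 in RL. The fall of EGR1 in RL, -2.25 ± 0.24, was also larger than the value in JeKo-1, -0.80 ± 0.35, which did not pass (adjusted p = 0.112). MME changed by 2.28 ± 0.08 in JeKo-1 and 1.17 ± 0.06 in RL, and CXCR4 by 1.03 ± 0.06 and 0.78 ± 0.05, so treated cells of both lines had more of each. BTK changed by 0.02 ± 0.06 in JeKo-1, which did not pass (adjusted p = 0.895), and by -0.29 ± 0.05 in RL. When 1 library was left out, the difference was no longer called for ACTB without JeKo-1 treated replicate 1 (adjusted p = 0.0978), for BTK without RL control replicate 2 (0.0505), for EGR1 without JeKo-1 treated replicate 2 (0.156), and for CXCR4 with 1 of 4 libraries left out (0.0524 to 0.112). Groups of 1 or 2 libraries are too small for an outlier test.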

How the results depend on the processing

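In JeKo-1, DESeq2's Wald test called 894 genes higher and 687 lower in place of 1877 and 2094, and 891 and 687 of these were among those genes. Leaving out a treated library in the model of all 7 libraries gave between 1198 and 1482 genes higher and between 1199 and 1448 lower, the lower counts without treated replicate 1; the lone sample of an arm is then assumed to vary like the other groups. Other scalings, limma-voom, the filters, 1 transcript per gene and the model of all 7 libraries gave between 1540 and 1883 higher and between 1453 and 2343 lower. For the difference between lines, DESeq2's Wald test called 1127 higher and 775 lower in place of 1396 and 1417, and leaving out 1 library gave between 1004 and 1433 higher and between 946 and 1437 lower. The JeKo-1 groups share only 1 replicate number, and same-numbered RL libraries did not deviate together (correlation across genes -0.0500), so the numbers do not pair libraries. With a replicate block in the model of all 7 libraries, 1649 genes were higher and 1811 lower in JeKo-1, and the difference was called higher for 1459 and lower for 1486.

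Over 208 genes named with a value in JeKo-1 and the 11 alternatives, 2167 values kept their direction and call, 73 lost the call, 4 gained it and none that was called changed direction. Genes that an alternative did not test or gave no adjusted p are not counted there, most often under the filter at a mean of 5 CPM. Over 20 genes compared between the lines, 192 values kept direction and call and 7 lost the call, those of ACTB, BTK, CXCR4 and EGR1. Scaling moved the median log2 fold change by less than 0.1. Without a second control no alternative can show how far a control varies, and genes with few reads in every library were not resolved at this depth.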

Other observations

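Some abundant genes with large differences in CPM are not among those of the largest fold change; they were chosen after their values were seen. KIAA0226L, an autophagy regulator also called RUBCNL, stood at 1694 and 1654 CPM in treated cells against 553 CPM in the control, a log2 fold change of 1.60 ± 0.08, and SPTBN1, which encodes the membrane skeleton protein beta-II spectrin, at 1216 and 1250.2 CPM against 524 CPM (1.23 ± 0.08). STMN1, a microtubule regulator, stood at 989 and 940.0 CPM against 595 CPM (0.70 ± 0.07). EEF1A1, a translation elongation factor, rose by less (0.32 ± 0.08). The structural RNAs RPPH1 and RMRP were higher as well, and the treated libraries differed from each other, with RPPH1 at 6860.0 and 8180.1 CPM against 5676 CPM and RMRP at 2857 and 3314 CPM against 2476 CPM. Neither was called by DESeq2's Wald test (adjusted p = 0.235 and 0.264), nor RMRP without treated replicate 2 (0.14). Among the falls were genes of the actin skeleton beside ACTB. ACTG1, its close paralog, stood at 348 and 388 CPM against 636 CPM (-0.79 ± 0.06), and LCP1, the actin-bundling L-plastin, at 739 and 683 CPM against 1071 CPM (-0.59 ± 0.07). ACTB and ACTG1 are near-identical in their coding parts, so reads may be shared.

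Among genes averaging under 5 CPM, some surface receptor genes fell steeply. The lipid-presenting CD1C had 5 and 13 reads in treated cells and 213 reads in the control (-4.43 ± 0.29), the inhibitory receptor PDCD1 had 8 and 8 reads and 150 reads (-4.09 ± 0.33), and the costimulatory receptor CD28 had 6 and 5 reads and 62 reads (-3.35 ± 0.46). In the other direction, the neighbours of KLRC4 in the natural killer receptor cluster also rose, KLRC2 with 111 and 125 reads against 17 reads (2.90 ± 0.32) and KLRC3 with 108 and 125 reads against 15 reads (3.06 ± 0.33). These genes are near-identical in parts, and reads may be shared between them.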
